A study of Mus musculus with 4 samples.

Results

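The 10 genes described here were chosen by name, with earlier results of these data known. They are Srebf1, which encodes the transcription factor SREBP-1, and 9 genes of fatty acid synthesis or linked to it. These 9 are Fasn, Acaca, Acacb, Acly, Scd1, Elovl6, Me1, Thrsp and Pnpla3. All 10 were found among the 35275 genes of the liver RNA-seq tables. All 10 reached 1 CPM in at least 1 library, as did 12180 genes in all. CPM are counts per 1000000 of a library's total after TMM scaling. The study crossed AApoAII amyloidosis, the deposition of apolipoprotein A-II as amyloid fibrils in mouse organs, with interval exercise training (IT). The 4 groups were vehicle-injected sedentary mice (VS), vehicle-injected mice given IT (VI), mice injected with AApoAII fibrils and kept sedentary (FS), and fibril-injected mice given IT (FI). The study reported no amyloid in vehicle groups, and less liver amyloid in FI than in FS. FI and FS thus differ in amyloid load as well as in training. Amyloidosis as a factor here means fibril injection, not an equal load. Each group was measured as 1 library, made from the pooled livers of 4 female mice, so 16 mice gave 4 libraries. All mice, the controls included, carried the amyloid-prone Apoa2c allele in a congenic strain, which the labels place under AKR/J and the methods describe as R1.P1-Apoa2c on a SAMR1 background. They were 26 weeks old when the livers were taken, after 16 weeks of training or of sedentary housing.

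Liver makes fatty acids from surplus carbohydrate. ATP-citrate lyase turns cytosolic citrate into acetyl-CoA, acetyl-CoA carboxylase turns that into malonyl-CoA, and fatty acid synthase builds palmitate with NADPH that malic enzyme helps to supply, after which the chain is elongated and desaturated. SREBP-1, held in the endoplasmic reticulum by INSIG proteins and released for processing with the help of SCAP, is a main activator of these genes, and insulin and the liver X receptors raise the transcription of Srebf1 itself. Malonyl-CoA has a further role, since the pool made at the mitochondrial surface by the Acacb product blocks the entry of fatty acids into mitochondria.

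The promoters are shown because most members are known targets of SREBP-1, which acts with the factors NF-Y and SP1, whose sites are the CCAAT box and the GC box. The RefSeq promoter table for GRCm38.p6, with 250 bases before and 50 after each start site, held 12 promoters for 9 of the 10 members and none for Scd1. The first 3 lines show the Srebf1 starts, which gene-level counts cannot tell apart. Fasn and Acacb follow as enzyme genes that went opposite ways with IT. All are written 5′ to 3′ on the gene's strand, and capitals mark CCAAT and GGGCGG on either strand.
Srebf1, chr11:60222532-60222831, minus strand: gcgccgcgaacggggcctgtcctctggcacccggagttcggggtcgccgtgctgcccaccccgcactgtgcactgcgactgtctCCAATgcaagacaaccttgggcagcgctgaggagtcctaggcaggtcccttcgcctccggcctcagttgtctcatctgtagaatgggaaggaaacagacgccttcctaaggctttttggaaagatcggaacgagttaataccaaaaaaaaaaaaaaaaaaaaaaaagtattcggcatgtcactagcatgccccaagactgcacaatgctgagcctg
Srebf1, chr11:60220578-60220877, minus strand: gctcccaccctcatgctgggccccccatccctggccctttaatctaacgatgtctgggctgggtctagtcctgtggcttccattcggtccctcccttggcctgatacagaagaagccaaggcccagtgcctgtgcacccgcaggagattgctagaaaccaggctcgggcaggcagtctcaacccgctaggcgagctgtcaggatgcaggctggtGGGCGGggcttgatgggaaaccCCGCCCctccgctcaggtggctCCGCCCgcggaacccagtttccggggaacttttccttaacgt
Srebf1, chr11:60210422-60210721, minus strand: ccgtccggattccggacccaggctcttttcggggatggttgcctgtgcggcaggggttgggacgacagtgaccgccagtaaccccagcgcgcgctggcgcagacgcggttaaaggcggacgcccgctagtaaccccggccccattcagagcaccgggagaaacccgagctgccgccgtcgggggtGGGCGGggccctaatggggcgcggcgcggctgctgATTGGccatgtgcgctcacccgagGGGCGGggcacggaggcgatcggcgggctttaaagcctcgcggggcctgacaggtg
Fasn, chr11:120824498-120824797, minus strand: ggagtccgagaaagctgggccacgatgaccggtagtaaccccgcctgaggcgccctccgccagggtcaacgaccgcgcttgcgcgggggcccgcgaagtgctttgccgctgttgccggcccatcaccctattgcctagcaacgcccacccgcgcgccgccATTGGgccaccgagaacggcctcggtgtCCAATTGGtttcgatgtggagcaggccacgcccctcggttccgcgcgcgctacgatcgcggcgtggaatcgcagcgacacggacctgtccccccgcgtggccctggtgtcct
Acacb, chr5:114165268-114165567, plus strand: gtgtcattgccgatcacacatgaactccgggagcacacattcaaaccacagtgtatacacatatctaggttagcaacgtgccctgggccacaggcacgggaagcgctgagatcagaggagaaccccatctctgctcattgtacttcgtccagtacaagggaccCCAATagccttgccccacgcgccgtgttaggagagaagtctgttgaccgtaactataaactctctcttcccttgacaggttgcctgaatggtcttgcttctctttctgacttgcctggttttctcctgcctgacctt

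Of the 9 members with a promoter, 7 held CCAAT, which 37.4% of the 32851 promoters in the table hold, and 4 held GGGCGG, which 35.7% hold. A member was counted if any of its windows held the motif, and Srebf1 and Me1 have several windows. The shares are per single promoter, so counts and shares are not like for like. Me1 held CCAAT only in the window whose start lies 8676 bases from the listed one. The Fasn window held 3 CCAAT boxes. No member's window held the letters TCACNCCAC, a core form of the sterol regulatory element found in 1.24% of all windows, or the palindrome CACGTG, an E-box found in 7.15%. All 4 motifs were searched on both strands. The windows do not all lie at the start used by the count tables: the first Srebf1 window matches it exactly, the Fasn start lies 369 bases from it, and the Acacb start lies 18983 bases downstream of the first listed one.

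Srebf1 (ENSMUSG00000020538, chr11:60199089-60222581, minus strand, mm10) was highest in VS and lowest in FI, and both training and amyloidosis went with a lower level. Its level was 284 CPM in VS and 174 in VI, against 165 in FS and 102 in FI, from 6711 and 4250 against 4871 and 2466 counts. The 4 levels did not overlap in their 95% counting intervals except that VI (169 to 180 CPM) and FS (160 to 170 CPM) met at their edges. With 1 pooled library per group, these intervals cover counting error only and contain no spread between mice. The log2 ratio of VI to VS was -0.70 (95% interval -0.76 to -0.65) and that of FI to FS was -0.69 (-0.77 to -0.62). Thus IT went with a 1.63-fold lower level in vehicle livers and a 1.62-fold lower level in fibril-injected livers, pairs of libraries that have no library in common. The difference between these log2 ratios was 0.01 (-0.08 to 0.10). The log2 ratio of FS to VS was -0.78 (-0.84 to -0.73) and that of FI to VI was -0.78 (-0.85 to -0.70). From VS to FI the level differed 2.79-fold.

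An additive model, with 1 term for IT and 1 for amyloidosis across the 4 libraries, was the test used, and its only residual degree of freedom is the departure of the 4 libraries from additivity. In this edgeR quasi-likelihood fit Srebf1 fell with IT by 0.70 on the log2 scale (SE 0.11, adjusted p = 0.034) and with amyloidosis by 0.78 (SE 0.11, adjusted p = 0.012). A false discovery rate of 0.05 was the threshold. The adjusted p ranged from 6.9e-06 to 0.037 for IT and from 1.2e-07 to 0.013 for amyloidosis under 6 alternative fits, and was 0.90 and 0.37 when the other factor was left out of the model. Across all 11760 genes tested, 0.672% were called higher and 0.663% lower with IT, and 2.64% higher and 1.96% lower with amyloidosis. Among the 10 members, IT called 1 higher (Acacb) and 1 lower (Srebf1), and amyloidosis called only Srebf1.

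**Figure D1:**
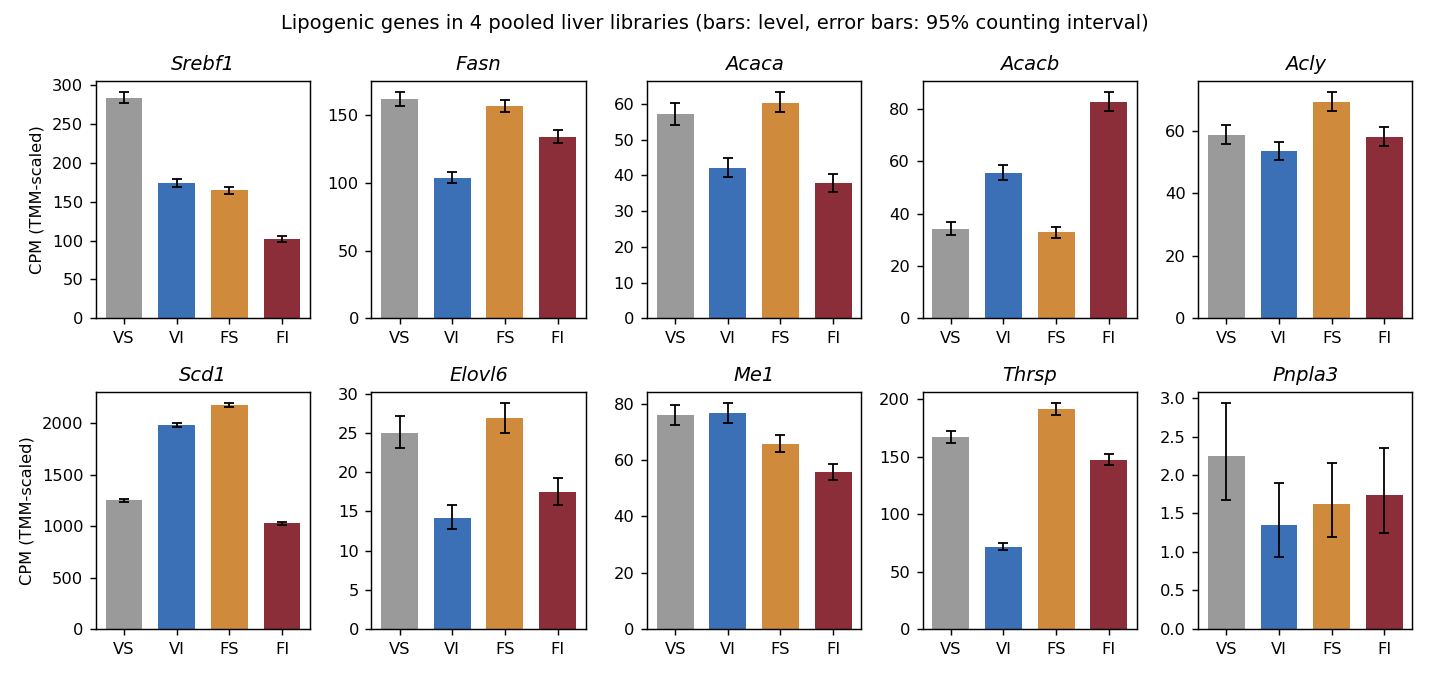
Level of each of the 10 genes in the 4 pooled liver libraries, in CPM after TMM scaling, with 95% counting intervals as error bars and each vertical axis starting at 0. Srebf1 steps down from 284 CPM in VS to 102 in FI, Acacb is highest in FI at 82.7, and Scd1 is high in VI and FS and low in VS and FI.

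The genes that make acetyl-CoA and NADPH moved little with IT. Acly, which encodes ATP-citrate lyase, was at 58.8 CPM in VS and 53.6 in VI, against 69.3 in FS and 58.2 in FI. FS was the highest of the 4, and VS and FI differed by a log2 ratio whose interval covered 0. The ratios with IT were -0.13 (-0.25 to -0.02) in vehicle and -0.25 (-0.35 to -0.15) in fibril-injected livers. Me1, cytosolic malic enzyme, was at 75.9 CPM in VS and 76.7 in VI, against 65.8 in FS and 55.7 in FI. VS and VI could not be told apart at this depth, and both fibril-injected libraries were below them. The log2 ratio of Me1 was -0.21 (-0.30 to -0.11) for FS to VS and -0.46 (-0.56 to -0.36) for FI to VI. The additive change of Me1 with amyloidosis was -0.33 (SE 0.12) and did not pass the test (adjusted p = 0.15).

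The acetyl-CoA carboxylase genes went in opposite directions with training. Acaca, which encodes the cytosolic ACC1 that feeds fatty acid synthesis, was at 57.2 CPM in VS and 42.2 in VI, against 60.4 in FS and 37.9 in FI. Both trained libraries lay below both sedentary ones. Acacb, which encodes the mitochondrial ACC2, was at 34.3 CPM in VS and 55.7 in VI, against 32.9 in FS and 82.7 in FI. Here both trained libraries lay above both sedentary ones, and the sedentary libraries differed by less than their counting error. The log2 ratio with IT was 0.70 (0.57 to 0.83) in vehicle and 1.33 (1.22 to 1.44) in fibril-injected livers, and the difference of 0.63 between them had an interval of 0.46 to 0.80. Of the genes compared, 99.3% had a lower FI to FS ratio than Acacb. In the additive fit Acacb rose with IT by 1.02 (SE 0.16, adjusted p = 0.036, and 3.8e-13 to 0.032 under 6 alternative fits, but 0.53 with the other factor left out). The additive change of Acaca with IT was -0.56 (SE 0.12, adjusted p = 0.075). Acaca was called under 3 of 7 alternative fits, with adjusted p from 0.00066 to 0.17 in the additive design and 0.74 with the other factor left out.

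Compared per length within a library, the balance of the carboxylase transcripts turned over. The FPKM of Acacb divided by that of Acaca was 0.650 in VS (95% interval 0.595 to 0.709) and 0.589 in FS (0.544 to 0.637). The same quotient was 1.43 in VI (1.32 to 1.55) and 2.36 in FI (2.19 to 2.56). Acaca was thus the more abundant of the pair in both sedentary libraries and Acacb in both trained ones. The quotient was 2.20-fold higher in VI than in VS and 4.02-fold higher in FI than in FS. It does not depend on how libraries are scaled to each other.

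**Figure D2:**
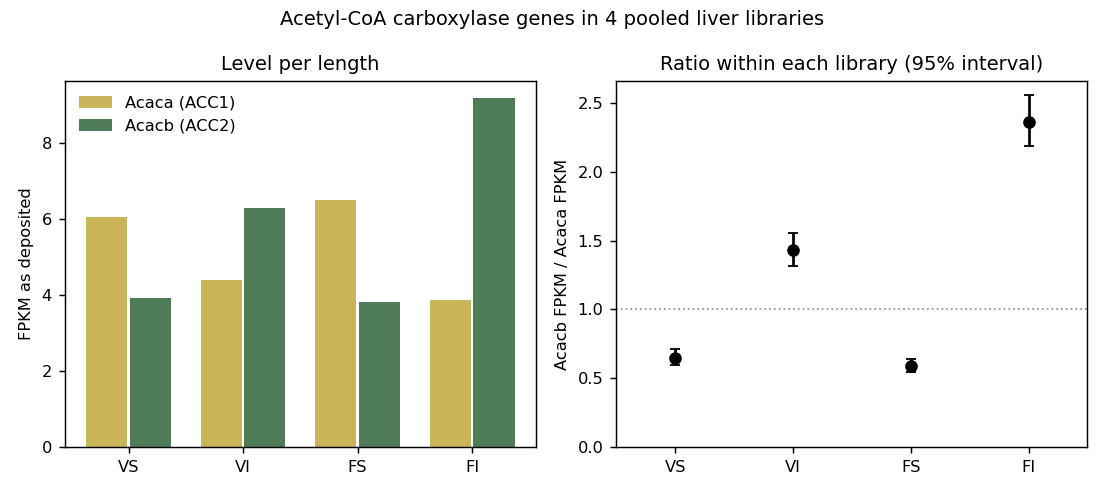
Left, FPKM of Acaca and Acacb in each library as bars from 0, and right, Acacb FPKM divided by Acaca FPKM with its 95% counting interval and a dotted line at 1. The quotient is 0.650 in VS and 0.589 in FS but 1.43 in VI and 2.36 in FI.

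Fasn, fatty acid synthase, was at 162 CPM in VS and 104 in VI, against 157 in FS and 134 in FI. It was lowest in VI, and the sedentary libraries differed by less than counting error. Its ratio with IT was -0.64 (-0.71 to -0.57) in vehicle and -0.23 (-0.29 to -0.16) in fibril-injected livers, and its additive change of -0.43 (SE 0.13) did not pass the test (adjusted p = 0.20). Fasn was called under 1 of 7 alternative fits, with adjusted p from 0.022 to 0.44 in the additive design and 0.90 with the other factor left out. Fasn did not follow the steps of Srebf1: Fasn FPKM per Srebf1 FPKM was 0.255 in VS and 0.267 in VI, against 0.427 in FS and 0.590 in FI. This quotient was 2.31-fold higher in FI than in VS. Elovl6, the elongase that takes palmitate to stearate, was at 25.0 CPM in VS and 14.2 in VI, against 26.9 in FS and 17.5 in FI, with both trained libraries below both sedentary ones. Its ratios with IT were -0.82 (-1.01 to -0.62) and -0.62 (-0.79 to -0.45), and its additive change of -0.72 (SE 0.13) did not pass the test (adjusted p = 0.053). Elovl6 was called with IT under 4 of 7 alternative fits, with adjusted p from 0.00011 to 0.090 in the additive design and 0.66 with the other factor left out.

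Scd1, the desaturase that makes oleate from stearate, had by far the highest CPM of the members and a crossed pattern. It was at 1249.5 CPM in VS and 1981 in VI, against 2181 in FS and 1028.5 in FI, from 29507 and 48258 against 64379 and 24881 counts. Each single factor went with a higher level than VS. FI, with training and a lower reported amyloid load than FS, had the lowest level of the 4. The log2 ratio with IT was 0.66 (0.64 to 0.69) in vehicle livers and -1.08 (-1.11 to -1.06) in fibril-injected livers. With amyloidosis it was 0.80 (0.78 to 0.82) in sedentary and -0.95 (-0.97 to -0.92) in trained mice. The difference of the IT ratios was -1.75 with a counting interval of -1.78 to -1.72, and without replicate libraries this difference could not be tested. The additive fit averages over the crossing and gave changes of -0.21 (SE 0.47) with IT and -0.07 (SE 0.47) with amyloidosis. Scd1 made up 59.0% of the members' counts in VS and 76.9% in VI, against 73.9% in FS and 61.8% in FI. For that reason the summed CPM of the 10 genes, 2116 in VS and 2575 in VI, against 2952 in FS and 1666 in FI, follows Scd1. Without Scd1 the sum was 867 in VS and 594 in VI, against 771 in FS and 637 in FI, lower in each trained library than in its sedentary counterpart.

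Thrsp, also called Spot 14, is a small protein that promotes lipogenesis and whose gene responds to thyroid hormone and carbohydrate. It was at 167 CPM in VS and 71.8 in VI, against 192 in FS and 147 in FI. VI stood apart below the other 3. Its ratio with IT was -1.22 (-1.30 to -1.14) in vehicle and -0.38 (-0.44 to -0.32) in fibril-injected livers, a difference of 0.84 (0.74 to 0.94). Its additive change with IT was -0.80 (SE 0.20, adjusted p = 0.14). Thrsp was called under 2 of 7 alternative fits, with adjusted p from 1.3e-07 to 0.15 in the additive design and 0.90 with the other factor left out. Per length it was the second most abundant member after Scd1 in every library, at 132 FPKM in VS and 55.8 in VI, against 154 in FS and 113 in FI. Pnpla3, a lipid droplet protein and SREBP-1 target, had only 53 counts in VS and 33 in VI, against 48 in FS and 42 in FI, or 1.35 to 2.24 CPM. Its only interval among the 4 comparisons that left out 0 was VI against VS, at -0.72 (-1.40 to -0.07), and its other differences were not detectable at this depth.

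**Figure D3:**
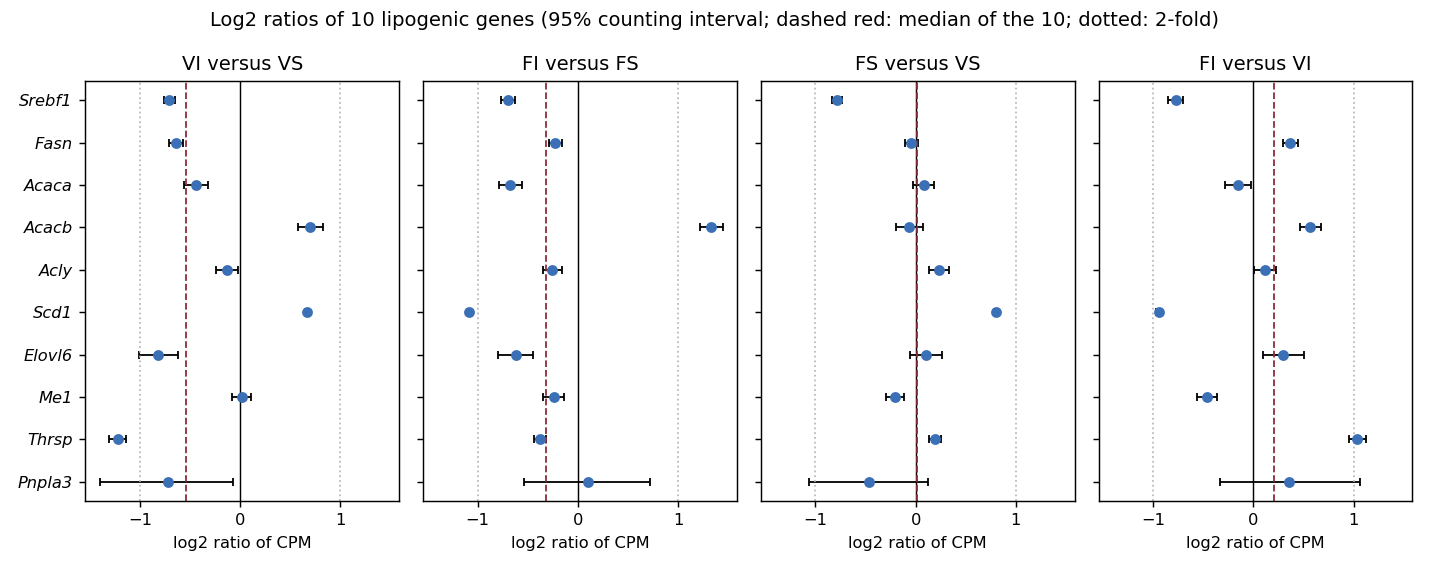
Log2 ratio of CPM for each gene in the 4 comparisons, with 95% counting intervals, dotted lines at 2-fold and a dashed line at the median of the 10. Most members lie below 0 in VI versus VS and FI versus FS, Acacb lies above 0 in both, and Scd1 changes side.

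As a set, the members were lower with IT on balance and not shifted with amyloidosis in sedentary mice. The median log2 ratio of the 10 was -0.54 for VI to VS and -0.32 for FI to FS, against medians of 0.003 and 0.002 over all 12180 genes. For VI to VS 7 of the 10 were lower and 3 higher, and for FI to FS 8 were lower and 2 higher. As a mean of the 10, the log2 ratio of VI to VS was -0.33, and on the log2(FPKM + 1) scale its median was -0.30. The median was 0.02 for FS to VS (5 higher, 5 lower) and 0.21 for FI to VI (6 higher, 4 lower), against 0.019 and 0.010 over all genes. The mean for FI to VI was 0.041. VI to VS and FS to VS share the VS library, and FI to FS and FI to VI share the FI library.

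Few members passed 2-fold. In VI against VS this was Thrsp alone, 1 lower and 0 higher, where 1.9% of all genes were beyond 2-fold lower and 1.54% higher. In FI against FS, Acacb was beyond it higher and Scd1 lower, against 1.75% and 2.53% of all genes. In FS against VS no member was, against 3.6% higher and 2.2% lower, and in FI against VI Thrsp was higher, against 2.59% higher and 1.95% lower. At 1.5-fold, 5 members were lower and 2 higher in VI against VS, where 6.3% and 5.34% of all genes were, and 4 were lower and 1 higher in FI against FS, where 7.55% and 5.98% were. In FS against VS 1 was lower and 1 higher, against 7.47% and 10.1%, and in FI against VI 2 were lower and 1 higher, against 6.08% and 7.9%.

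Around these enzymes, 83 further genes of the pathway were followed in 6 lists, of which 79 were measured at 1 CPM. Their median log2 ratio was -0.08 for VI to VS and 0.03 for FI to FS. It was -0.13 for FS to VS and -0.07 for FI to VI. Among the 78 tested in the additive fit, 3 were called higher and 2 lower with IT, and 3 higher and 4 lower with amyloidosis. Over all genes tested, 0.672% were called higher and 0.663% lower with IT, and 2.64% and 1.96% with amyloidosis. Of the 22 genes that control SREBP and lipogenic transcription, only Insig2 was called. Insig2, which retains the SREBP and SCAP complex in the endoplasmic reticulum, was at 64.1 CPM in VS and 142 in VI, against 105 in FS and 224 in FI. This order mirrors that of Srebf1 at its ends: Insig2 was lowest in VS and highest in FI. It rose with IT by 1.12 (SE 0.11, adjusted p = 0.0063) and with amyloidosis by 0.69 (SE 0.11, adjusted p = 0.017). Insig1, itself a target of nuclear SREBP, was at 207 CPM in VS and 159 in VI, against 164 in FS and 98.3 in FI, with an additive change of -0.56 (SE 0.13) with IT (adjusted p = 0.10) and -0.51 (SE 0.13) with amyloidosis (adjusted p = 0.067). Mlxipl, the carbohydrate-responsive factor ChREBP, which like Insig1 was named after its values were seen, was at 292 CPM in VS and 215 in VI, against 163 in FS and 207 in FI.

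Of the 16 genes that supply carbon and NADPH, 13 had a lower level in VI than VS, and 10 had one in FI than FS. Over all genes, 49.3% were lower in VI than VS and 49.8% in FI than FS. Pklr, liver pyruvate kinase, fell with IT by 0.92 (SE 0.11, adjusted p = 0.013) and was named after its values were seen. Of 13 elongases, desaturases and acyl-CoA synthetases tested, Elovl5 fell with IT by 0.68 (SE 0.12, adjusted p = 0.048) and Acsl1 fell with amyloidosis by 0.82 (SE 0.14, adjusted p = 0.019), both likewise named after their values were seen. Fads2, the delta-6 desaturase, was at 434 CPM in VS and 313 in VI, against 192 in FS and 257 in FI. Acsl3 was at 28.0 CPM in VS and 27.2 in VI, against 22.9 in FS and 12.9 in FI.

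Genes of glycerolipid assembly were mostly higher in the trained libraries. Of the 9 measured, 7 had a higher level in VI than VS, and 8 had one in FI than FS, with medians of 0.32 in both. Of all genes, 50.7% were higher in VI than VS and 50.2% in FI than FS. For VI to VS the counting intervals of Gpam, Dgat1 and Lpin3, counted as higher, and of Agpat3, counted as lower, covered 0. Lpin1, a phosphatidate phosphatase that is also a transcriptional coactivator, was at 111 CPM in VS and 241 in VI, against 429 in FS and 690 in FI. It rose with IT by 0.90 (SE 0.14, adjusted p = 0.034) and with amyloidosis by 1.74 (SE 0.15, adjusted p = 0.0020). Gpat4, a glycerol-3-phosphate acyltransferase listed under its older symbol Agpat6 and named after its values were seen, rose with IT by 0.75 (SE 0.11, adjusted p = 0.029). Lpin3 was at 1.86 CPM in VS and 2.59 in VI, against 5.49 in FS and 4.05 in FI.

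Among 11 genes that act on acetyl-CoA carboxylase, none was called with IT. Mid1ip1, a partner of Thrsp that promotes polymerization of ACC, was at 25.6 CPM in VS and 10.7 in VI, against 16.6 in FS and 11.1 in FI, lower in both trained libraries, and its additive change with IT was -0.92 (SE 0.19, adjusted p = 0.067). Trib3, a pseudokinase linked to ACC degradation, was at 6.94 CPM in VS and 4.27 in VI, against 16.5 in FS and 7.73 in FI and rose with amyloidosis by 1.07 (SE 0.18, adjusted p = 0.019). Of 7 liver X receptor targets other than Srebf1, 0 were called with IT, and 3 fell with amyloidosis: Abcg5 by 0.55 (SE 0.11, adjusted p = 0.037), Abcg8 by 0.54 (SE 0.12, adjusted p = 0.045) and Lpcat3 by 0.67 (SE 0.13, adjusted p = 0.027). These 3 were named after their values were seen, while 7 of the 7 targets had a higher level in VI than VS, and 5 had a higher and 2 a lower level in FI than FS. Of all genes, 50.7% were higher in VI than VS and 50.2% in FI than FS. For VI to VS the counting intervals of Abcg1, Lpcat3 and Smpdl3a covered 0. For FI to FS those of Abcg1 and Smpdl3a, the lower ones, covered 0.

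**Figure D4:**
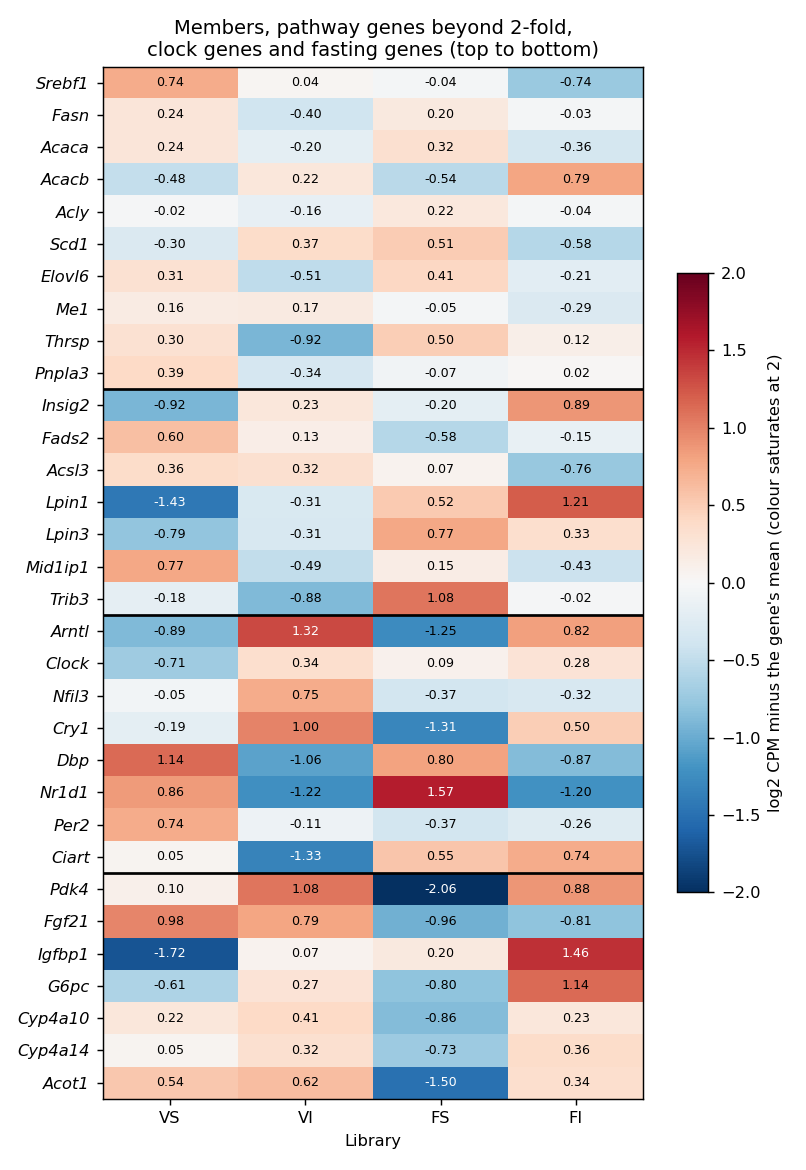
Log2 CPM of each gene in each library minus the gene's mean over the 4 libraries, red above and blue below, with the number printed in each cell. Black lines separate, from top to bottom, the 10 members, the pathway genes named in the text that were beyond 2-fold in a comparison, clock genes and fasting genes. Srebf1 runs from 0.74 in VS to -0.74 in FI, and Insig2 and Lpin1 run the other way.

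Some markers of time of day and of feeding moved with the groups. Of 13 clock genes tested, Arntl and Cry1 rose and Dbp and Nr1d1 fell with IT, and Cry1 fell with amyloidosis (adjusted p = 0.048). In direction the list was mixed, with 5 higher and 8 lower in VI than VS, and 7 higher and 6 lower in FI than FS. The log2 ratio of Ciart was -1.38 for VI to VS and 0.19 for FI to FS, and that of Per2 was -0.84 and 0.11. Dbp was at 102 CPM in VS and 22.2 in VI, against 80.9 in FS and 25.5 in FI, and Nr1d1, whose product represses Arntl, was at 30.0 in VS and 7.10 in VI, against 49.0 in FS and 7.19 in FI, so that trained and sedentary libraries did not overlap for either. Of 12 genes that fasting induces, 9 had a higher level in VI than VS, and 12 of 12 had one in FI than FS. Over all genes, 50.7% were higher in VI than VS and 50.2% in FI than FS. Igfbp1, which insulin represses, was at 154 CPM in VS and 533 in VI, against 585 in FS and 1396 in FI and rose with both factors. With amyloidosis the list leaned the other way: 9 of the 12 were lower in FS than in VS, with a median log2 ratio of -0.41 and 4 beyond 2-fold lower, and Fgf21, a fasting-induced hormone, fell with amyloidosis by 1.77 (SE 0.23, adjusted p = 0.0086). In FI against VI, 8 were higher and 4 lower. Over all genes, 48.0% were lower in FS than VS, and 51.3% were higher in FI than VI. Pdk4 was at 26.0 CPM in VS and 51.0 in VI, against 5.79 in FS and 44.5 in FI, and G6pc, glucose-6-phosphatase, at 206 in VS and 381 in VI, against 181 in FS and 694 in FI. The part of these in the lower Srebf1 and the higher Acacb was not tested.

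Markers of other tissues were low beside those of hepatocytes, whose 10 markers summed to between 171663 and 190521 CPM. Alb alone was at 119865 to 135778 CPM, so this sum does not show how single markers moved. Tat was at 938 CPM in VS and 2018 in VI, against 3225.5 in FS and 5278 in FI. Cyp2e1 was at 11182 CPM in VS and 9742 in VI, against 6011 in FS and 8798 in FI. In FS against VS, 6 of the 10 hepatocyte markers were higher and 4 lower. The 13 skeletal muscle markers summed to 79.95 CPM in VS and 10.4 in VI, against 1.02 in FS and 0.827 in FI, so VS stands apart, and the part of these markers in the ratios that use VS or VI was not tested. VI also held more of them than FI in sum, at 10.4 against 0.827 CPM. Some single markers were near the floor in both, such as Myh4 and Pvalb at 1 count in VI and 0 in FI. Of the 4 comparisons, only FI to FS involves neither VS nor VI. Without VS the additive fit would have no residual degree of freedom, so its calls have no version that leaves VS out. The 10 adipose markers summed to between 32.0 and 59.2 CPM, with Lep at 0 in every library and Plin4 as the marker that rose with IT. Of the 10 pancreas markers 7 were at 0 in every library, and the sum was between 12.8 and 23.2 CPM. In bulk liver, fewer cells of a type and less RNA per cell cannot be told apart. Rai1 overlaps Srebf1 on the other strand and had 303 to 359 counts, and Acaca, Acacb and Me1 overlap listed genes with at most 63 counts.

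No other member had a profile close to that of Srebf1. Likeness was the root mean square distance between log2 CPM profiles centred over the 4 libraries, and the nearest members were Me1 at 0.37 and Acaca at 0.38, while Acacb was farthest at 1.01. Among the 7695 genes at 10 CPM or more in a library, the nearest to Srebf1 were Slc16a11 (0.07), Gamt (0.07), Pcsk4 (0.08), 1810058I24Rik (0.08) and Fdft1 (0.08). Fdft1, squalene synthase of the cholesterol pathway, was at 162 CPM in VS and 115 in VI, against 106 in FS and 66.5 in FI. The genes nearest to the mean of the 10 profiles were 1110058L19Rik, Cdk5, Rnh1, Notch2 and Arhgef10l, at 0.0085 to 0.021. With 4 points a profile, such closeness is a description.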

How the data were processed

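RNA was extracted from liver tissue pooled from 4 mice per group, and the deposited table holds raw read counts and FPKM per gene for the 4 libraries. The submitters' notes name fastp 0.23.2, STAR 2.5, HTSeq 0.6.1 and mm10. For strandedness and for reads that map to several places, no setting is given in the sources used here. The FPKM deposited by the authors equalled count divided by gene length and library total. The totals were 23442935 counts in VS and 24524287 in VI, against 28814802 in FS and 24801185 in FI, and 3 counts, the floor for a gene at 0, correspond to 0.102 to 0.127 CPM.

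CPM values were scaled by TMM in edgeR 4.0.16, with a prior count of 0.5 for ratios. Genes at 1 CPM in at least 1 library were compared pairwise, with exact binomial 95% intervals and exact Poisson intervals for levels. Intervals on the differences between IT ratios came from a normal approximation on the log scale. All these intervals cover counting error only. There was no replicate library, so no pairwise comparison was tested. The additive fit (edgeR robust quasi-likelihood, 3 coefficients, Benjamini-Hochberg adjustment) used genes at 1 CPM in at least 2 libraries. Alternative fits were edgeR without robust estimation, with DESeq2 size factors, with total counts, without the filter on low counts and with the other factor left out, and the additive design in limma-voom 3.58.1 and DESeq2 1.42.0.

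The members and gene lists were chosen with earlier results of these data known. Besides the 10 members, the text names list genes beyond 2-fold in a comparison and at 5 CPM in a library, and the 5 genes nearest in profile to Srebf1 and to the members' mean, and it says where a gene was named after its values were seen. Not every clock, fasting, muscle and adipose gene that this rule takes is given its values. A gene of the lists that the rule takes is not reported here.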

Additional observations from a re-analysis of the deposited data

Results flagged for a closer look

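Scd1 differed between groups under the same contrast. Its log2 ratio with IT in fibril-injected livers minus that in vehicle livers was -1.749, being 0.66 in vehicle and -1.08 in fibril-injected livers. The same quantity is reached as the ratio with amyloidosis in trained minus sedentary mice, -1.749, from 0.80 in sedentary and -0.95 in trained mice. The single library of each group moved the opposite way, and with 1 library per group the difference was not tested.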

How the results depend on the processing

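No paired analysis was possible because each group is 1 library, and no replicate could be left out. Of 240 member ratios recomputed under other scalings, prior counts and FPKM pseudocounts, 218 stayed within the counting interval, 22 moved and 0 were counted as reversed. Ratios near 0 could change sign within their interval. That of Me1 for VI to VS was 0.015, and -0.005 with total counts. The median ratio of VI to VS was -0.30 on the log2(FPKM + 1) scale, -0.44 over members at 5 CPM and -0.33 as a mean, and the FI to VI median became 0.041 as a mean. At 1.5-fold in place of 2-fold, 7 members passed in VI against VS, 5 in FI against FS, 2 in FS against VS and 3 in FI against VI, while on the log2(FPKM + 1) scale 0 passed 2-fold in FI against VI. Members called with IT numbered 4 with DESeq2 size factors, 4 with total counts, 6 without the filter and 0 with the factor alone (643 genes at an unadjusted p under 0.05 in edgeR, 3 members in limma-voom and 3 in DESeq2 with the additive design). With amyloidosis they numbered 2 without the filter and 0 with the factor alone (1614 genes at an unadjusted p under 0.05). All genes called with IT numbered 241 with DESeq2 size factors, 276 with total counts and 740 without the filter, against 157, and with amyloidosis 1519 without the filter, against 540. The cause was not tested. The difference of the IT ratios of Scd1 was -1.80 with total counts and -1.80 without the 10 most abundant genes. The scalings shifted all ratios by at most 0.071. Counting error is widest for Pnpla3, at 33 to 53 counts, and intervals also covered 0 for Me1 in VI to VS and for Fasn, Acaca, Acacb and Elovl6 in FS to VS.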
